A study of Mus musculus with 9 samples.

Results

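Of 21159 genes counted in 9 libraries of mouse bone marrow cells, 8 were far higher in every library of cells transformed by the leukaemia fusion protein KMT2A-MLLT1 than in every library of bone marrow (BM) progenitor cells. Described here are 7 of them, Mag, Mpzl1, Pde3b, Aldoc, Ttll3, Cela1 and Spats2. The genes were chosen from the authors' normalized counts, which are read counts divided by 1 constant per library. The lowest value over the 6 transformed libraries had to be at least 40 and at least 4 times the highest value over the 3 BM progenitor libraries. These limits were met by 11 genes (0.052% of all genes), of which Hoxa7, Hoxa10 and Meis1 were left out by name, since the choice set aside Hoxa genes, Meis1 and Spp1. Since the choice rests on transformed against BM progenitor levels, those differences are described and not tested.

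The 9 libraries form 3 groups of 3, which the labels call independent biological replicates. The growth protocol, the same for every library, starts from lineage-depleted marrow cells of Runx2 fl/fl mice with a tamoxifen-inducible Cre (CreERT2 tg/+), given a retrovirus for KMT2A-MLLT1 with eGFP and plated in methylcellulose at intervals of 7 days. Runx2ko are transformed suspension cells in which Cre was activated by 4-OHT (hydroxytamoxifen, 400 nM, 24 hours) to delete Runx2. Runx2wt are transformed cells given ethanol. BM progenitor RNA was taken untreated before the first replating, and the labels do not state outright whether these cells carried the fusion. Transformed and BM progenitor cells thus also differ in culture form and passage, and these cannot be told apart from transformation. The labels give no age for the mice and do not say which exon was floxed. In bulk RNA, more cells expressing a gene and more RNA per cell cannot be told apart.

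KMT2A-MLLT1 joins the chromatin-binding part of KMT2A, a histone methyltransferase, to MLLT1 (ENL), a subunit of complexes that speed up transcript elongation, and so keeps developmental genes active in myeloid cells that would otherwise switch them off. Its best known targets are the Hoxa genes and their cofactor Meis1. The genes described here come from other fields of biology, among them myelin, cyclic AMP breakdown, glycolysis and tubulin modification.

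The libraries held 3118594 to 5348177 counts each. Runx2ko replicate 1 stood apart. Across genes, the correlation of its log2 values with each of the 5 remaining transformed libraries was 0.811 to 0.832, and those 5 correlated with one another at 0.941 to 0.964. In this library a list of 15 mast cell and basophil genes summed to 22959 normalized counts, against 679.8 to 2838 in the other Runx2ko and the Runx2wt libraries and 5631 to 6265 in BM progenitor. A list of 25 monocyte and macrophage genes summed to 3100 there, to between 26514 and 66496 in the remaining Runx2ko and Runx2wt libraries, and to between 22287 and 30939 in BM progenitor. The 16 T and NK cell genes summed to 10392 in it, of which Gzmb alone, a cytotoxic granule protease gene, gave 9810. None of the 8 members stood in any of the 10 marker lists. Runx2 itself was at 88.9, 510.6 and 583.5 normalized counts in Runx2ko, at 675.0, 770.1 and 561.3 in Runx2wt and at 229.5, 201.2 and 254.2 in BM progenitor. As 3' tags may lie outside the deleted exon, this does not check the deletion, and Runx2ko refers to libraries under that label. The extraction protocol speaks of T-ALL cells. Of the T cell genes, Cd3e, Cd3g, Cd4, Cd8a and Ptcra were each at 8.09 normalized counts or less in every library, and Cd3d was highest in Runx2ko replicate 2, at 20.2. Lck had 29.9 to 95.8 normalized counts in transformed and 13.4 to 31.4 in BM progenitor libraries, and Thy1, which other cell types also express, had 19.9 to 542.2 in transformed and 11.004 to 17.4 in BM progenitor libraries.

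Promoter sequences are shown for the 3 members with the smallest p-values between Runx2ko and Runx2wt. Each window runs from 250 bases before to 50 bases from a start site of the gene on, read 5' to 3' on the gene's strand (RefSeq, GRCm38.p6). Capitals mark the RUNX motif TGTGGT or its reverse complement ACCACA. The Mag window (chr7:30914272-30914571, minus strand) is 1 of its 3 windows, chosen because it holds the motif, the Aldoc window (chr11:78322823-78323122, plus strand) is 1 of 2, and the Mpzl1 window (chr1:165634492-165634791, minus strand) holds no match.
Mag: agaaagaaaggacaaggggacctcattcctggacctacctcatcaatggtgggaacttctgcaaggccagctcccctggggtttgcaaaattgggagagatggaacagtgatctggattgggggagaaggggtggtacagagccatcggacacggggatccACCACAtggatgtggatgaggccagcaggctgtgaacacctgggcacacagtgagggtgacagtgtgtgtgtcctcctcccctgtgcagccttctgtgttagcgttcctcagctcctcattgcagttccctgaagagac
Aldoc: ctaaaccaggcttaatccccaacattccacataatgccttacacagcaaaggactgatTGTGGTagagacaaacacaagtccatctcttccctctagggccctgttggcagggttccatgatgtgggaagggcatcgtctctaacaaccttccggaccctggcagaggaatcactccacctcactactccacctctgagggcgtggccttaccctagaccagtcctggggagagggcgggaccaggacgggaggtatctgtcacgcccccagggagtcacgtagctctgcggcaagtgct
Mpzl1: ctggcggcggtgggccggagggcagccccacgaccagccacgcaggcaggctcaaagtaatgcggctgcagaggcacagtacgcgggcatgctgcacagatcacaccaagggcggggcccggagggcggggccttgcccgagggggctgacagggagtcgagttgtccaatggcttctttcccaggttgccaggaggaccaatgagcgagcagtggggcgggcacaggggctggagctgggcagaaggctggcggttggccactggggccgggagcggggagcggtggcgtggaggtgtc

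The RefSeq table matched 6 members, and Pde3b was not among them. Of the 6, 3 held the RUNX motif on either strand in at least 1 window, namely Aldoc, Mag and Ttll3, against 18.9% of 27025 genes in the table. In the printed windows the motif began 192 bases before the start site of the Aldoc window and 89 bases before that of the Mag window. That Mag start site lies inside the gene, downstream of the start sites of the other Mag windows, which held no match. The motif of the Hoxa9 cofactor MEIS, TGACAG, stood in windows of Aldoc, Mag and Mpzl1 (21.6% of genes). The core of the myeloid factor PU.1, GAGGAA, stood in windows of Aldoc, Cela1, Mag and Spats2 (31.3% of genes), and the GC box GGGCGG in windows of Aldoc, Mpzl1, Spats2 and Ttll3 (38.2% of genes). CCAAT stood in windows of Mag, Mpzl1 and Ttll3 (41.1% of genes). The C/EBP motif TTGCNNAA was in windows of Mag alone (12.2% of genes) and the TATA box TATAAA in that of Cela1 alone (15.7% of genes). Matches to AP-1 (TGANTCA), CRE (TGACGT), the E-box CACGTG, a HOX-PBX site (TGATTTAT), ETS (CCGGAAGT) and an IRF motif were not in these windows. Aldoc, Mag and Ttll3 each had more than 1 window, which gives a motif more chances to be present. With 6 members these shares are descriptions only, and a match is not a binding site.

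Cell-surface proteins of the immunoglobulin superfamily are encoded by Mag and Mpzl1. Mag (ENSMUSG00000036634, GRCm38 chromosome 7, 30899176 to 30914873, minus strand), the sialic acid-binding myelin-associated glycoprotein of glial cells, had 68.4, 43.7 and 91.6 normalized counts in Runx2ko, 162.6, 140.9 and 109.6 in Runx2wt and 4.72, 3.49 and 3.67 in BM progenitor. Its lowest transformed value was 9.27 times its highest BM progenitor value, the widest gap of the 8 members. The BM progenitor level rested on 13 reads in all (exact Poisson 95% interval 6.92 to 22.2, counting error only). Other myelin genes did not share this profile: Mbp, the myelin basic protein gene, had 102.8 to 383.1 normalized counts in the transformed libraries and 275.3 to 306.6 in the BM progenitor libraries, while Cnp had 60.7 to 95.5 in transformed and 88.4 to 128.5 in BM progenitor libraries. Among the other sialic acid-binding Siglec genes, Cd33 had 1328 to 2400 normalized counts in 5 of the 6 transformed libraries, 80.7 in Runx2ko replicate 1 and 83.5 to 96.5 in BM progenitor. Siglech, a plasmacytoid dendritic cell gene, had 0.797 to 6.84 in transformed and 45.4 to 85.7 in BM progenitor libraries.

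Mpzl1 (ENSMUSG00000026566, chromosome 1, 165592240 to 165634538, minus strand), a surface protein whose tail binds the phosphatase SHP-2, had 166.9, 152.9 and 170.2 normalized counts in Runx2ko, 287.7, 367.7 and 408.8 in Runx2wt and 8.65, 32.6 and 31.2 in BM progenitor. The 3 Runx2ko libraries were within a narrow band, below all Runx2wt libraries and above all BM progenitor libraries. BM progenitor replicate 1 was lower than the other 2, and the ratio of 4.70 is taken against the highest of them. Its relatives Mpzl2 and Mpzl3 were at 8.14 normalized counts or less in every library.

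The enzymes are Pde3b, Aldoc, Ttll3 and Cela1. Pde3b (ENSMUSG00000030671, chromosome 7, 114415281 to 114539251, plus strand), which breaks down cyclic AMP and is inhibited by cyclic GMP, had 339.3, 449.9 and 551.8 normalized counts in Runx2ko, 291.7, 496.7 and 381.4 in Runx2wt and 43.2, 58.1 and 41.3 in BM progenitor. Runx2ko and Runx2wt overlapped, and Pde3b had the highest BM progenitor level of the 8 members. Other phosphodiesterases that were higher in all transformed libraries than in all BM progenitor libraries had smaller ratios: Pde4a had 365.0 to 537.7 normalized counts in transformed and 186.1 to 205.5 in BM progenitor libraries, and Pde1b had 71.7 to 178.4 in transformed and 25.9 to 33.7 in BM progenitor libraries. Pde4b and Pde7a overlapped between transformed and BM progenitor libraries.

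Aldoc (ENSMUSG00000017390, chromosome 11, 78322968 to 78327781, plus strand), the brain form of the glycolytic enzyme aldolase, had 392.7, 437.8 and 476.6 normalized counts in Runx2ko, 201.6, 334.3 and 305.1 in Runx2wt and 25.2, 22.1 and 36.7 in BM progenitor. All Runx2ko values were above all Runx2wt values, and both were clear of BM progenitor. Aldoa, the common form, was far more abundant throughout, with 3065 to 5503 normalized counts in transformed and 2346 to 2482 in BM progenitor libraries. Aldoc therefore stayed the minor aldolase transcript in transformed cells as counted by 3' tags, which do not scale with transcript length.

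Ttll3 (ENSMUSG00000030276, chromosome 6, 113389260 to 113414587, plus strand), a ligase that adds glycine to tubulin in cilia, had 84.8, 62.3 and 66.9 normalized counts in Runx2ko, 55.0, 52.5 and 51.2 in Runx2wt and 11.004, 5.81 and 4.59 in BM progenitor. It varied least of the members over the transformed libraries, with an SD of 0.27 log2 units. Ttll3 shares up to 283 bases of exon with Arpc4, an actin-nucleating subunit on the same strand, so some reads may belong to either gene. Arpc4 did not follow the pattern of Ttll3, with 1828 to 3691 normalized counts in transformed and 2683 to 3001 in BM progenitor libraries. Among other tubulin ligases, Ttll4 had 71.5 to 120.6 normalized counts in transformed libraries, below the 139.5 to 186.1 in BM progenitor, and Ttll5 overlapped between them.

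Cela1 (ENSMUSG00000023031, chromosome 15, 100674421 to 100687921, minus strand), a serine protease known from the pancreas, had 165.6, 114.1 and 93.9 normalized counts in Runx2ko, 55.0, 90.7 and 75.1 in Runx2wt and 13.4, 11.6 and 11.01 in BM progenitor. Each Runx2ko library was above each Runx2wt library. Cela1 was the member nearest the fold limit, at 4.12 times. Spats2 (ENSMUSG00000051934, chromosome 15, 99125916 to 99213215, plus strand), a gene named for its part in sperm formation, had 128.6, 83.4 and 69.3 normalized counts in Runx2ko, 83.7, 68.1 and 139.4 in Runx2wt and 3.93, 4.65 and 12.8 in BM progenitor. The transformed groups overlapped, and BM progenitor replicate 3 was the highest of its group. Its relative Spats2l was at 0 in all transformed libraries and at 2.33 or less in BM progenitor.

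**Figure D1:**
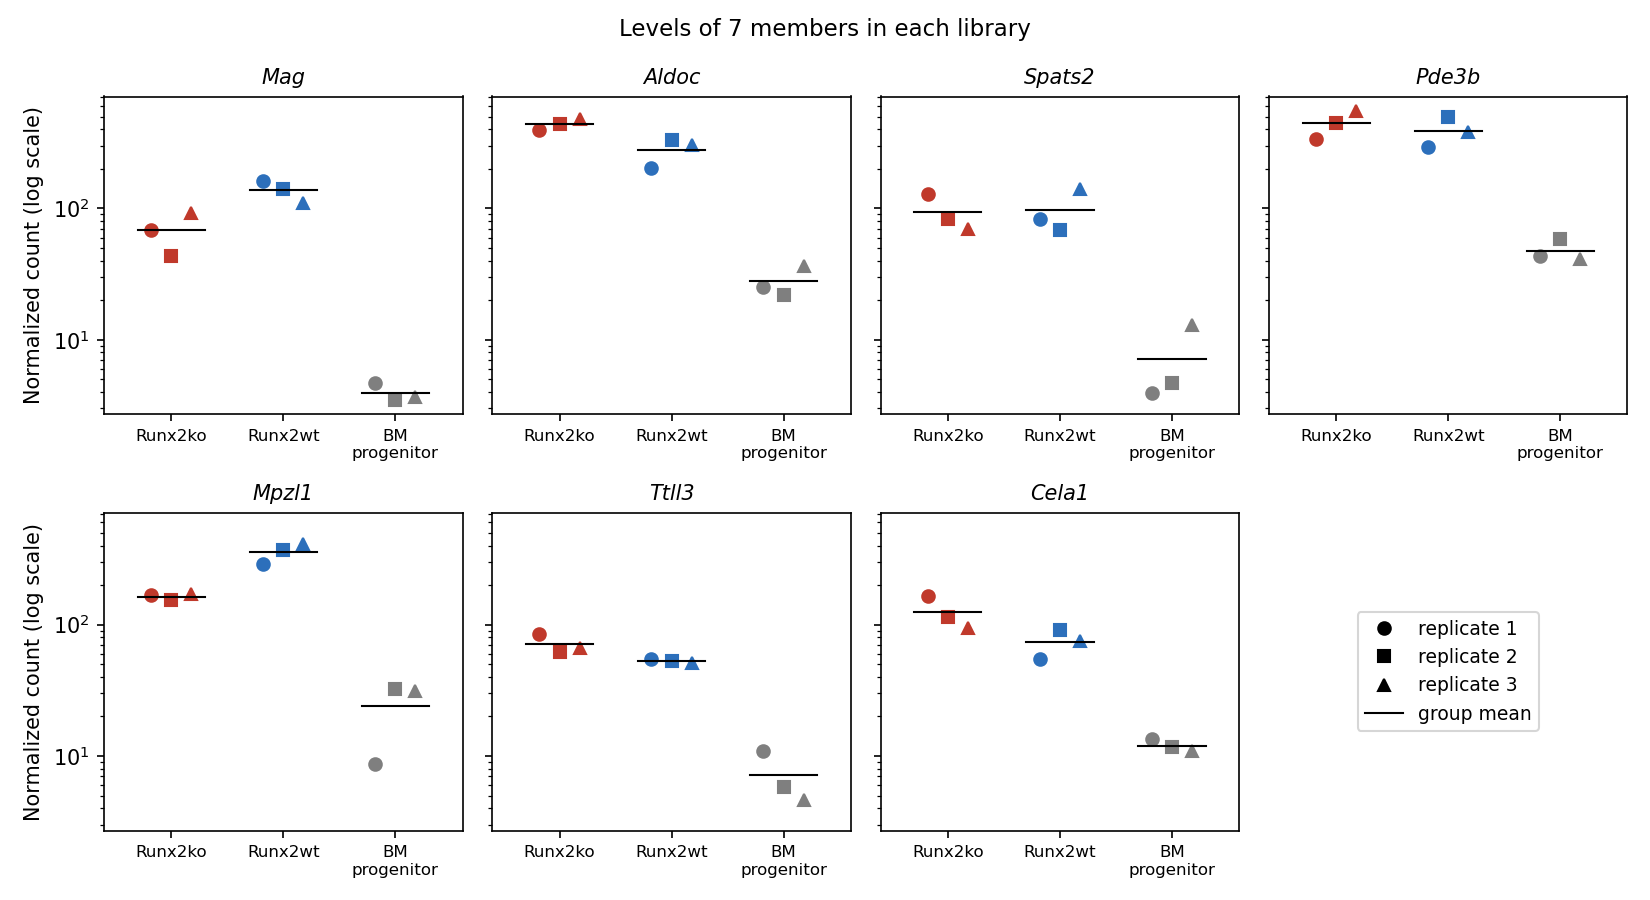
Normalized counts (log scale) of 7 members in the 3 libraries of each group, with lines at the group means and marker shapes for replicates 1 to 3. Every transformed value lies above every BM progenitor value, as the choice of genes requires, and Runx2ko and Runx2wt do not overlap for Mag, Mpzl1, Aldoc, Ttll3 and Cela1.

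No member was silent in BM progenitor. The highest BM progenitor values ran from 4.72 for Mag to 58.1 for Pde3b. Pde3b, Aldoc and Mpzl1 averaged 47.6, 28.0 and 24.1 normalized counts there, so "higher" describes the 8 better than an off-to-on change. Among genes with 0 counts in all BM progenitor libraries, the one with the highest minimum over transformed libraries was Neil2, a DNA repair glycosylase, at 19.96. The level limit of 40 stands for 29.2 to 50.2 reads in a transformed library. Just inside the fold limit, Cela1, Ttll3, Mpzl1, Pde3b and Spats2 had ratios of 4.12, 4.66, 4.70, 5.02 and 5.30. Just outside it, Gstt3, Gsn, Pi16, Agpat3 and Stc2 had ratios of 3.73, 3.49, 3.47, 3.44 and 3.39. Just inside the level limit, the lowest transformed values were 43.7 for Mag, 51.2 for Ttll3, 55.0 for Cela1 and 68.1 for Spats2. Just outside it they were 36.9 for Six4, 35.6 for Abca1, 33.5 for Gm16587, 32.9 for Extl1 and 27.5 for Vwf. Over the 6950 genes at 40 or more in every transformed library, the median ratio of the lowest transformed to the highest BM progenitor value was 0.675.

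**Figure D2:**
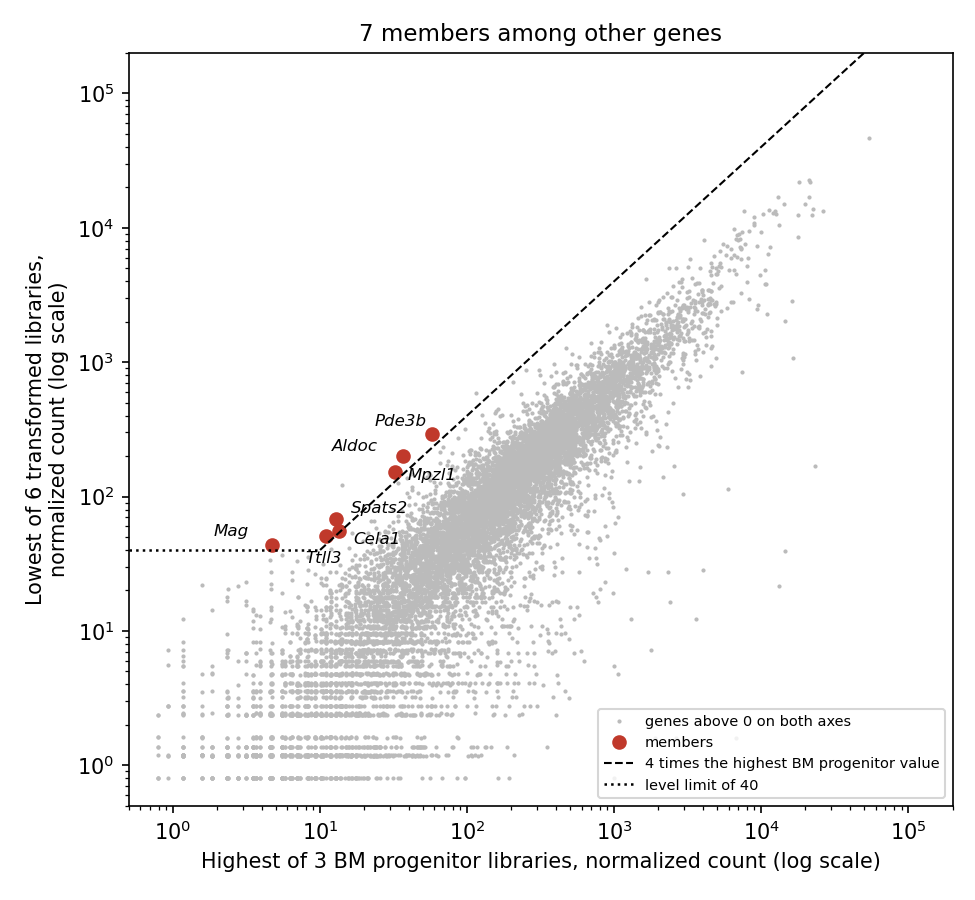
Lowest value over the 6 transformed libraries against the highest over the 3 BM progenitor libraries, in normalized counts on log scales, for genes above 0 on both axes. The 7 members shown (red) lie above the level limit of 40 (dotted) and the line at 4 times (dashed), and the 3 grey points in that area are Hoxa7, Hoxa10 and Meis1, which were left out by name.

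Which genes met the limits turned on Runx2ko replicate 1. Without it 64 genes met them, the 8 members and 56 others. Each of the 56 had to miss a limit in Runx2ko replicate 1, since only leaving out that library let it in. Of those 56, 47 were under 40 normalized counts in Runx2ko replicate 1, 32 were at or below their highest BM progenitor value there and 7 were at 0. Those named here, and the neighbours named around Aldoc, Mag and Cela1, were picked after their values were seen. Elavl2, an RNA-binding protein gene of neurons, had 2.74, 1135 and 462.6 normalized counts in Runx2ko, 497.3, 825.0 and 450.5 in Runx2wt and 0.786, 1.16 and 0 in BM progenitor. Rhoj, a small GTPase, had 27.4, 1448 and 1389 in Runx2ko, 1380, 1451 and 1204 in Runx2wt and 20.4, 16.3 and 15.6 in BM progenitor. Igf2bp3, an RNA-binding protein known as a fusion target, had 2.74, 148.9 and 191.4 in Runx2ko, 295.7, 177.9 and 264.6 in Runx2wt and 0.786, 3.49 and 1.83 in BM progenitor. All 3 were near their BM progenitor level in Runx2ko replicate 1 and far above it in the other 5 transformed libraries. Without Runx2wt replicate 1 or BM progenitor replicate 1, 14 genes met the limits, and without each other library 8 to 12 did. The lists of mast cell and monocyte genes, and several other marker lists, move with the same library, and their part in this was not tested.

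Other genes of the fusion programme were read from a list of 28 KMT2A-fusion targets outside the Hoxa cluster, of which 23 were tested. Six4, Eya1 and Igf2bp3 met the limits when Runx2ko replicate 1 was left out and did not with it. In 6 of the 23 all transformed values were above all BM progenitor values, against 13.3% of tested genes. The 6 include 1 member, for which the choice of genes required this, so the count is a description only. Among the 6, Six4, a developmental transcription factor, had 36.9 to 642.4 normalized counts in transformed and 1.16 to 5.50 in BM progenitor libraries. Its lowest transformed value was 6.71 times its highest BM progenitor value, past the fold limit but under the level limit. Jmjd1c, which encodes a protein of the histone demethylase family, had 237.1 to 704.5 in transformed and 161.1 to 223.9 in BM progenitor libraries. Cdk6, a cell cycle kinase, had 7641 to 9557 normalized counts in transformed and 4970 to 5529 in BM progenitor libraries. Gfi1, a transcriptional repressor needed for granulocyte development, had 477.9 to 1208 in transformed and 251.4 to 292.4 in BM progenitor libraries. Dusp6, a phosphatase that restrains ERK signalling, had 656.8 to 1419 in transformed and 290.9 to 387.5 in BM progenitor libraries. The ratios of the lowest transformed to the highest BM progenitor value were 1.06, 1.38, 1.63 and 1.69 for Jmjd1c, Cdk6, Gfi1 and Dusp6, below the limit of 4. None of the 23 passed between Runx2ko and Runx2wt in the edgeR test. Of 8 Hoxb genes, which form another Hox cluster, 1 was tested, and it was neither a member nor a gene that passed.

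The difference between Runx2ko and Runx2wt was not used to choose the members, although every member had to be high in all 6 transformed libraries. It asks whether 4-OHT treatment, meant to delete Runx2, shifts these genes in transformed cells. No member passed in edgeR's quasi-likelihood test across 11196 genes, with p adjusted by Benjamini-Hochberg (smallest adjusted p = 0.579), and no gene of the whole table did (0.0%), while 886 of them (7.91%) lay under 0.05 before adjustment. With DESeq2 46 genes (0.411%) passed, none of them a member, and with limma-voom none did (0.0%). Without Runx2ko replicate 1, edgeR called 5 genes of 11636 (0.043%) and no member. With 3 libraries a group, a p that misses the threshold does not show that a gene did not differ.

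Within this limit the members differed in direction. Mpzl1 and Mag had log2 fold changes of -1.12 (SE 0.36, edgeR unadjusted p = 0.0117, adjusted p = 0.579) and -1.03 (SE 0.31, edgeR unadjusted p = 0.0077, adjusted p = 0.579), and Runx2ko libraries lay below Runx2wt libraries in 3 of 3 for both. Mpzl1 averaged 163.4 ± 9.17 normalized counts in Runx2ko and 354.7 ± 61.6 in Runx2wt, and Mag averaged 67.9 ± 23.9 in Runx2ko and 137.7 ± 26.6 in Runx2wt (SD, n = 3 each). Cela1 and Aldoc had log2 fold changes of 0.77 (SE 0.29, edgeR unadjusted p = 0.0273, adjusted p = 0.58) and 0.64 (SE 0.23, edgeR unadjusted p = 0.0218, adjusted p = 0.579), with all 3 Runx2ko libraries above all Runx2wt libraries. Aldoc averaged 435.7 ± 42.0 normalized counts in Runx2ko and 280.4 ± 69.7 in Runx2wt, and Cela1 averaged 124.5 ± 36.9 in Runx2ko and 73.6 ± 17.9 in Runx2wt. Ttll3 also did not overlap, with 71.4 ± 11.9 in Runx2ko and 52.9 ± 1.90 in Runx2wt (log2 fold change 0.43, SE 0.33, edgeR adjusted p = 0.768).

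Pde3b and Spats2 differed by less than the spread between libraries. Pde3b had a log2 fold change of 0.20 (SE 0.25) and Spats2 of -0.05 (SE 0.43), with edgeR adjusted p-values of 0.862 and 0.981. In all, Runx2ko and Runx2wt did not overlap for 5 of the 8 members, against 9.66% of tested genes and 9.29% of the 6950 tested genes at 40 or more in every transformed library. Of these, 3 were higher in Runx2ko, against 4.87% and 4.6% in the same gene sets, and 2 were lower, against 4.79% and 4.69%. An unadjusted p under 0.05 was reached by 4 of 8, against 7.91% and 6.45%. They were 2 higher members, against 5.14% and 3.64%, and 2 lower members, against 2.78% and 2.81%. Without Runx2ko replicate 1 the groups did not overlap for 5 members, and 3 had an unadjusted p under 0.05. The shares over all tested genes are not given for that smaller comparison, and those above do not apply to it. The members were chosen with earlier results of these data in view, so no test of these shares was made.

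**Figure D3:**
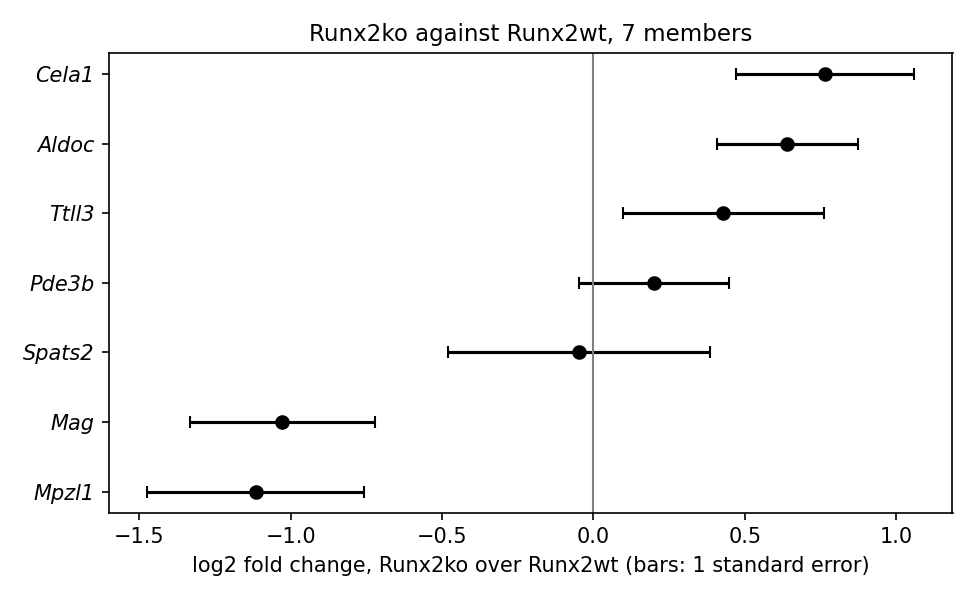
Log2 fold change of Runx2ko over Runx2wt for 7 members from edgeR, with bars of 1 standard error (3 libraries a group). Cela1 (0.77), Aldoc (0.64) and Ttll3 (0.43) lie to the right of 0 and Mag (-1.03) and Mpzl1 (-1.12) to the left, and no member passed after adjustment.

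The members share no chromosomal site. The 7 genes lie on 5 chromosomes, with Mag and Pde3b on chromosome 7 and Spats2 and Cela1 on chromosome 15, and no 2 of them stand within 200 kb of each other. Around them 30 tested genes lie within 100 kb, and in 9 of these all transformed values were above all BM progenitor values, against 13.3% of tested genes. Of the 7 around Aldoc, 4 did so. Directly downstream, Pigs, a gene of lipid anchor transfer 634 bases away, had 228.8 to 331.9 normalized counts in transformed and 129.1 to 154.8 in BM progenitor libraries, and Unc119, a lipid-binding trafficking protein gene, had 309.2 to 616.1 in transformed and 155.1 to 194.2 in BM progenitor libraries. Slc13a2, a dicarboxylate transporter gene, had 16.4, 178.8 and 257.1 in Runx2ko, 98.8, 142.1 and 132.3 in Runx2wt and 11.004, 13.95 and 15.6 in BM progenitor. Spag5, a spindle gene that ends 511 bases upstream of Aldoc, had 45.8 to 188.1 in transformed and 179.1 to 193.4 in BM progenitor libraries, and these overlapped. Neighbours of one member are not independent of each other.

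Next to Mag, Cd22, a Siglec gene of B cells, had 2.74, 25.9 and 17.6 normalized counts in Runx2ko, 31.1, 10.7 and 44.1 in Runx2wt and 0, 1.16 and 0 in BM progenitor. It rested on 2 reads in Runx2ko replicate 1 and on 1 read over the 3 BM progenitor libraries, too few to tell that library from BM progenitor. Around Cela1, Bin2 and Galnt6, the nearest tested genes on either side, overlapped between transformed and BM progenitor libraries, and Galnt6 was at 1230 in Runx2ko replicate 1 against 62.2 to 175.3 in the other transformed libraries. The single tested neighbour of Mpzl1, Rcsd1, overlapped too.

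**Figure D4:**
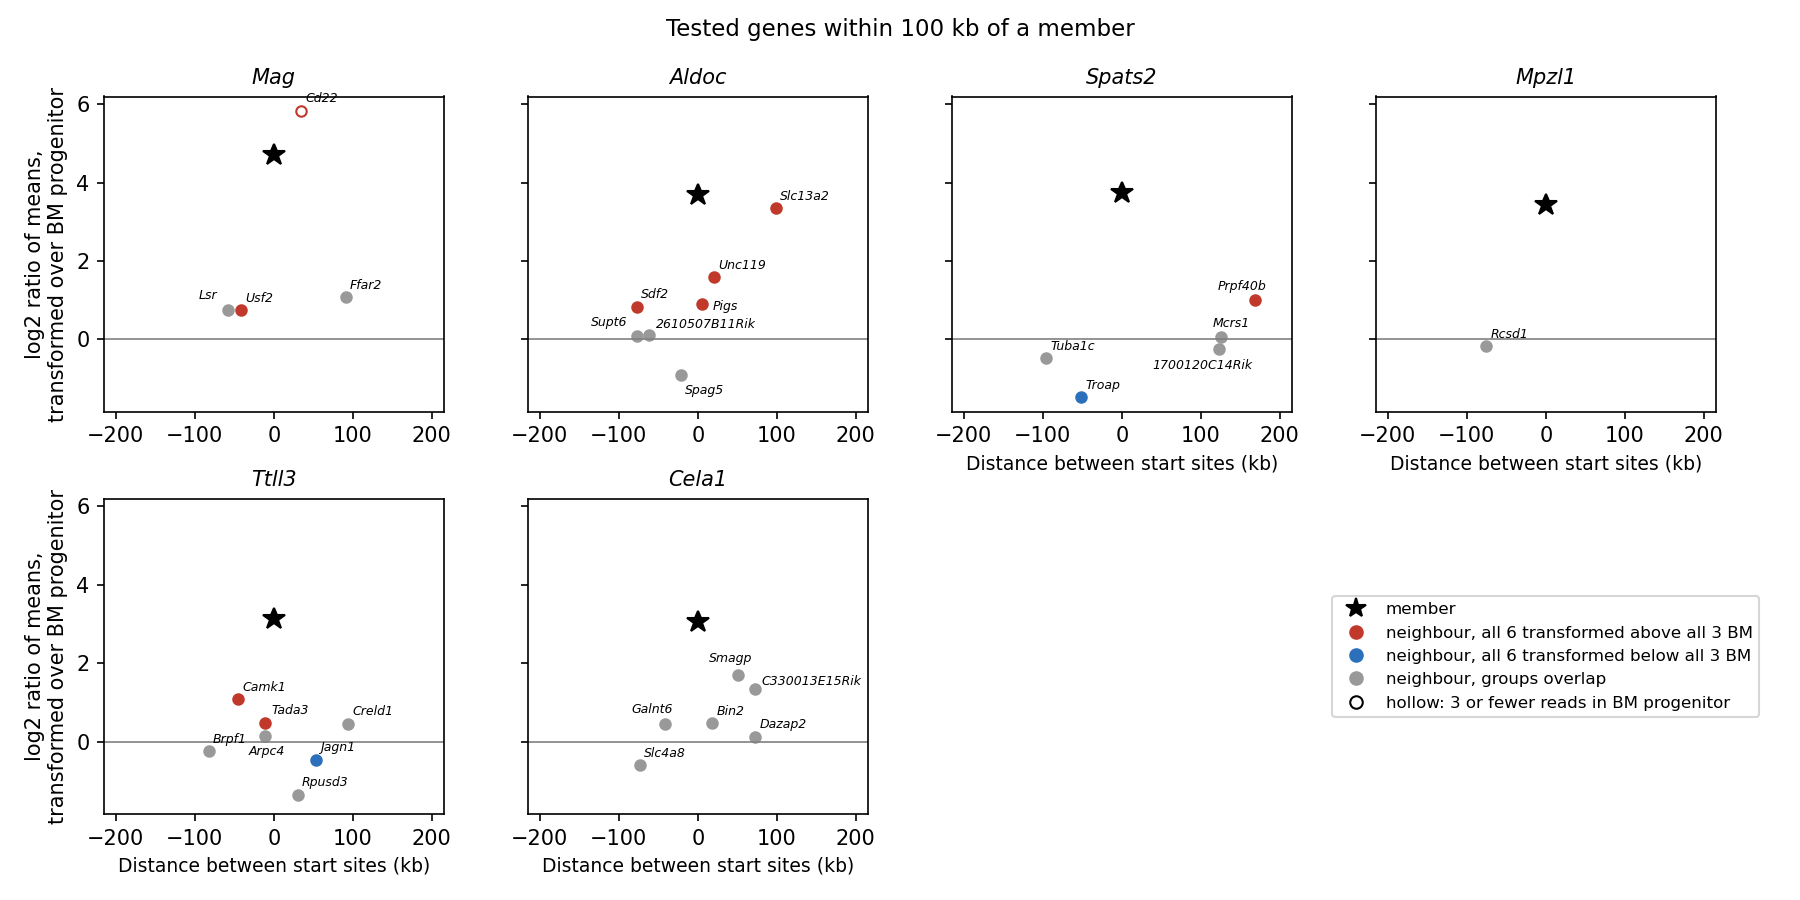
Log2 ratio of the transformed to the BM progenitor mean for tested genes within 100 kb of a member, against the distance between start sites in kb, along the member's own strand. Red points are neighbours with all 6 transformed libraries above all 3 BM progenitor libraries (9 of 30), 2 blue points have all transformed libraries below, hollow points rest on 3 or fewer BM progenitor reads, and stars mark the members themselves.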

How the data were processed

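Read counts for each Ensembl gene were deposited by the authors. A second deposited table holds their normalized counts, each a count divided by 1 constant per library (0.731 to 1.27). The sources used here do not give the method behind these constants, the counting program or the gene annotation. Libraries were 3' tag libraries (QuantSeq) from 500 ng of RNA, per the labels' protocols. FastQC, STAR and DESeq2 with the build GRCm38 are named in the submitters' processing notes, without versions. Whether strand was used in counting is not stated, so overlapping genes may share reads.

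Levels are the authors' normalized counts. The 8 genes and all lists were chosen with earlier results of these data known, and the gene families after the members were seen. Results for 1 of the 8 are not reported here. Raw counts were tested with edgeR 4.0.16 (quasi-likelihood, TMM, filterByExpr, 11196 genes, R 4.3.3) in 1 fit of all 9 libraries, with Benjamini-Hochberg adjustment over all genes and a threshold of 0.05. Standard errors were derived from the F statistic. Alternatives used DESeq2 1.42.0 and limma 3.58.1. The fit was tested on simulated data. Named genes were the members with the largest ratios, the highest levels, the smallest p-values and the smallest and largest spread, those in a list, and genes next to each limit; this covers all 8 members. Symbols and positions came from GENCODE M21 (GRCm38) and matched 21042 identifiers. Any 2 libraries of a group differed by more than sampling noise, with a mean chi-square of 4.49 or more for each gene.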

Additional observations from a re-analysis of the deposited data

How the results depend on the processing

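The number of genes that met the limits was 8. It was 78 at a minimum fold of 2, 2 at 8, 20 at a minimum level of 20 and 4 at 80, and 8 to 64 when 1 library was left out. With TMM-scaled CPM and the limits as they stood it was 2, CPM values being at the median 0.232 times the normalized values, and with the level limit rescaled, an alternative chosen after seeing the data, all 8 members and no other gene met it. Between Runx2ko and Runx2wt, 46 genes passed with DESeq2, and 0 to 5 when 1 library was left out, the 5 being without Runx2ko replicate 1. No member passed under any of the 16 alternatives. Deviations from the group means correlated at 0.0744, 0.0309 and -0.056 for the same replicate numbers, and at -0.122 to 0.151 for different numbers. Runx2ko replicates 1 and 2 correlated best with the Runx2wt library of the same number, and Runx2ko replicate 3 with Runx2wt replicate 2. With 3 libraries a group, these values do not settle whether the libraries were paired. With the replicate block, 0 genes passed, and the log2 fold change of Spats2 was 0.051. For Spats2 it ran from -0.34 to 0.30 with 1 library left out, so its sign was not fixed. The other 7 members kept their direction in all 16, although the log2 fold change of Pde3b fell to 0.034 (SE 0.258) without Runx2ko replicate 3. Depth limits Mag most, with 3 to 6 reads in a BM progenitor library. Spats2 and Ttll3 also rested on few reads, 23 and 24 over the 3 BM progenitor libraries.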
